A study of Mus musculus with 8 samples.

Results

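Calcium release from the endoplasmic reticulum, calcium uptake into it and the calcium-gated potassium channel of lymphocytes were followed through 8 genes: Itpr1, Itpr2, Itpr3, Stim1, Atp2a2, Atp2a3, Atp2b1 and Kcnn4. Every probe set annotated to one of these genes alone was taken. This gave 16 of the 22626 probe sets tested, for 6 of the 8 genes: 5 for Itpr2, 1 for Itpr3, 2 for Stim1, 4 for Atp2a2, 2 for Atp2a3 and 2 for Kcnn4. No probe set was matched to Itpr1 or Atp2b1, and these were not analysed here. Itpr3 was selected on its lower intensity without OBF-1 on these same arrays, so all its values are a description with no test. The other genes were selected for their place in calcium handling, but with earlier results of these data known. Their tests are thus not fully separate from that choice.

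The study asked how Aiolos (gene Ikzf3), a DNA-binding relative of Ikaros, and OBF-1 (gene Pou2af1), which joins Oct factors on DNA, act on gene expression in pre-BII cells, which have a rearranged heavy chain gene and go on to rearrange a light chain gene. MOE430A GeneChips were hybridized with RNA from mice deficient for both (the double mutant), for Aiolos alone, for OBF-1 alone and for neither (wild type), with 2 arrays for each of the 4 genotypes, all of the strain Bl6 and an age of 7 weeks. By the paper's methods each array holds B220+ CD25+ pre-BII cells, large and small together, sorted from an independent pool of 8 mice. The labels differ: they list plain bone marrow, and 1 mouse for a mutant, with no sort or pool. The description in the paper is followed here. Both mutations are deletions carried by all cells of the mouse.

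Engagement of the pre-B cell receptor or B cell receptor activates phospholipase C, which makes inositol trisphosphate (IP3). IP3 opens the IP3 receptors (Itpr1, Itpr2, Itpr3), tetrameric channels that let calcium out of the endoplasmic reticulum. Stim1 senses the emptied store and opens Orai channels in the plasma membrane, SERCA pumps (Atp2a2, Atp2a3) refill the store, the plasma membrane pump Atp2b1 expels calcium, and Kcnn4, the potassium channel KCa3.1, is opened by calcium and keeps the membrane potential that drives calcium entry.

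OBF-1 acts together with Oct1 and Oct2 at octamer sites, so the promoter windows of RefSeq (GRCm38.p6, 250 bases before to 50 bases after an annotated start) were searched on both strands for the octamer ATGCAAAT, which reads ATTTGCAT on the other strand. The windows of 6 of the 8 genes were given (Itpr2, Itpr3, Stim1, Atp2a3, Atp2b1 and Kcnn4), and Itpr1 and Atp2a2 had no entry. The windows of Itpr3, Stim1 and Kcnn4 begin past the first base of the annotated gene. For these genes, sequence before the gene was not searched. Of 32851 mouse windows, 570 (1.74%) held the octamer. Among the calcium genes the window of Itpr3 held it once, at chr17:27057277-27057284, inside the annotated gene. Its first base lay 27 bases before the annotated start of that window. The window of Atp2a3 did not hold the octamer but held the first 7 letters of its reversed form, ATTTGCA, at chr11:72960922-72960928, with the first base 247 bases before the start. This shorter string, which overlaps the octamer and was looked for after the sequence had been seen, was in 1321 windows (4.02%). The letters TGGGAA, a core bound by Ikaros family proteins, were in 8397 windows (25.6%) and in none of those of the calcium genes. The windows of Itpr3 (chr17:27057054-27057353, plus strand) and Atp2a3 (chr11:72960919-72961218, plus strand) are shown because these 2 genes had the lower intensities without OBF-1. Capitals mark the octamer in Itpr3 and these 7 letters in Atp2a3. A match describes the letters and is not a measured binding site.
Itpr3: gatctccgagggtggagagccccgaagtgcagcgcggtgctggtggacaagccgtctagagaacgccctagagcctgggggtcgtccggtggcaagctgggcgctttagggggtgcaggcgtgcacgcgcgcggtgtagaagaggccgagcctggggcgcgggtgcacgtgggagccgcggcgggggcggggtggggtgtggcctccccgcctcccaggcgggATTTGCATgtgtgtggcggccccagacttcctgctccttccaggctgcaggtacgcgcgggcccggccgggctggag
Atp2a3: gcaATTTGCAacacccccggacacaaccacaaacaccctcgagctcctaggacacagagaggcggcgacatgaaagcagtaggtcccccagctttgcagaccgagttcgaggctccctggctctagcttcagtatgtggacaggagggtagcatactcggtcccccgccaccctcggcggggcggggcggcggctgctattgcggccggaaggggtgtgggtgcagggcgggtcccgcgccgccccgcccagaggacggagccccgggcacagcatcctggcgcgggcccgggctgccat

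Some facts of the whole series bear on all values below. The deposited intensities were normalized by the authors with RMA and are on a linear scale. The paper's methods do not name RMA and give Affymetrix Microarray suite and GeneSpring as its analysis software. The deposited intensities rank arrays for 1 probe set but not 1 gene against another. Array medians lay between 66.8 and 69.4 units, and the correlation of the 2 arrays of a genotype was 0.9961 to 0.9965. Pou2af1 had 170.1 to 272.9 units on the 4 arrays from OBF-1-deficient mice, against 2434 to 2842 units on the other 4 arrays. Ikzf3 had no matched probe set, so the loss of Aiolos could not be checked. Station 1 of the fluidics held the arrays of both genotypes without Aiolos and station 2 those of both genotypes with it. Loss of Aiolos and station therefore cannot be told apart, while the effect of OBF-1 loss was measured within a station. In each station the arrays with OBF-1 were on modules 1 and 2 and those without it on modules 3 and 4. Loss of OBF-1 and module thus cannot be told apart either. Of the 6 measured B-lineage markers, Cd79a was at 7079 to 9365 units over the arrays and Pax5 at 58.4 to 72.6 units, near the array median. Of the 5 measured T cell markers, Cd3e was the brightest at 115.9 to 137.6 units. The others, Cd3d, Cd3g, Cd8a and Cd4, lay between 13.8 and 64.1 units, below the array medians. Among granulocyte and monocyte markers, S100a8 was at 4574 to 6211 units and Csf1r at 205.3 to 305.3 units. The summed intensity of these 8 markers, all 8 measured, was 24620 to 24998 units in the double mutant, 22480 to 23230 without Aiolos alone and 23910 to 27267 without OBF-1 alone, against 19895 to 19944 in wild type. In bulk RNA, fewer cells of a type and less RNA per cell cannot be told apart.

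Differences were fitted on log2 intensities with limma over all 22626 probe sets, and a change was called at a Benjamini-Hochberg adjusted p under 0.05. Apart from Itpr3, 15 probe sets of 5 calcium genes were read in 7 comparisons. The labels give replicates a number alone and the paper's methods describe separate pools, so p-values measure the spread between these arrays, as far as it stands for that between pools.

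The IP3 receptor gene Itpr3 (chromosome 17, 27057002 to 27122223, GRCm38.p6) had its lowest values on the 4 arrays from mice without OBF-1. Its probe set 1417297_at had 276.0 and 270.5 units in double-mutant pre-BII cells and 351.4 and 324.7 units in OBF-1 single-mutant cells. It had 574.4 and 650.9 units in Aiolos single-mutant cells, against 957.2 and 709.8 units in wild type cells. No array without OBF-1 reached any array with it. In rising order the genotype means were 273.3 ± 3.89 in the double mutant, 338.0 ± 18.9 for loss of OBF-1 alone, 612.7 ± 54.2 for loss of Aiolos alone and 833.5 ± 174.9 units in wild type (SD, n = 2 each). Between the 2 highest genotypes the gap of the nearest arrays was smaller than the distance between the wild type arrays, while the arrays of the 2 lowest genotypes stood apart by more than their own spread.

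On the log2 scale Itpr3 differed by -1.29 between the OBF-1 single mutant and wild type, a 2.44-fold lower level, and by -1.16 between the double mutant and the Aiolos single mutant, a 2.24-fold lower level. The log2 difference of the double mutant from wild type was -1.59. For loss of Aiolos it was -0.31 without OBF-1, in the double mutant over the OBF-1 single mutant, and -0.43 between the Aiolos single mutant and wild type. The wild type arrays set much of the last value: it was -0.65 without WT replicate 2 and -0.22 without WT replicate 1. Leaving out 1 array at a time gave -1.50 to -1.07 for the OBF-1 single mutant against wild type and -1.81 to -1.38 for the double mutant against wild type. These values chose the gene and support nothing further. Beside them, the summed intensity of the 4 pre-BII markers (Il2ra, Rag1, Rag2 and Vpreb3) was 5407 to 5789 units in the double mutant and 5032 to 5482 in the OBF-1 single mutant. It was 9337 to 9447 units in the Aiolos single mutant and 9407 to 9893 in wild type. The list did not move one way: for averaged loss of OBF-1, 2 of the 4 were called higher and 1 lower by limma. Vpreb3 had the widest range in units (1108 to 6035), beside 2568 to 3237 for Rag1. The 4 measured markers of immature and mature B cells (Cr2, Fcer2a, Ms4a1 and Cd22) summed to 2404 to 2411 units in the double mutant. Their sum was 2907 to 3026 units in the OBF-1 single mutant, 2999 to 3395 in the Aiolos single mutant and 3667 to 3953 in wild type. For averaged loss of OBF-1, 1 of these was called higher and 2 lower, and Ms4a1 ranged from 580.2 to 2521 units. The part of these marker levels and of the granulocyte signal in the Itpr3 values was not tested.

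**Figure D1:**
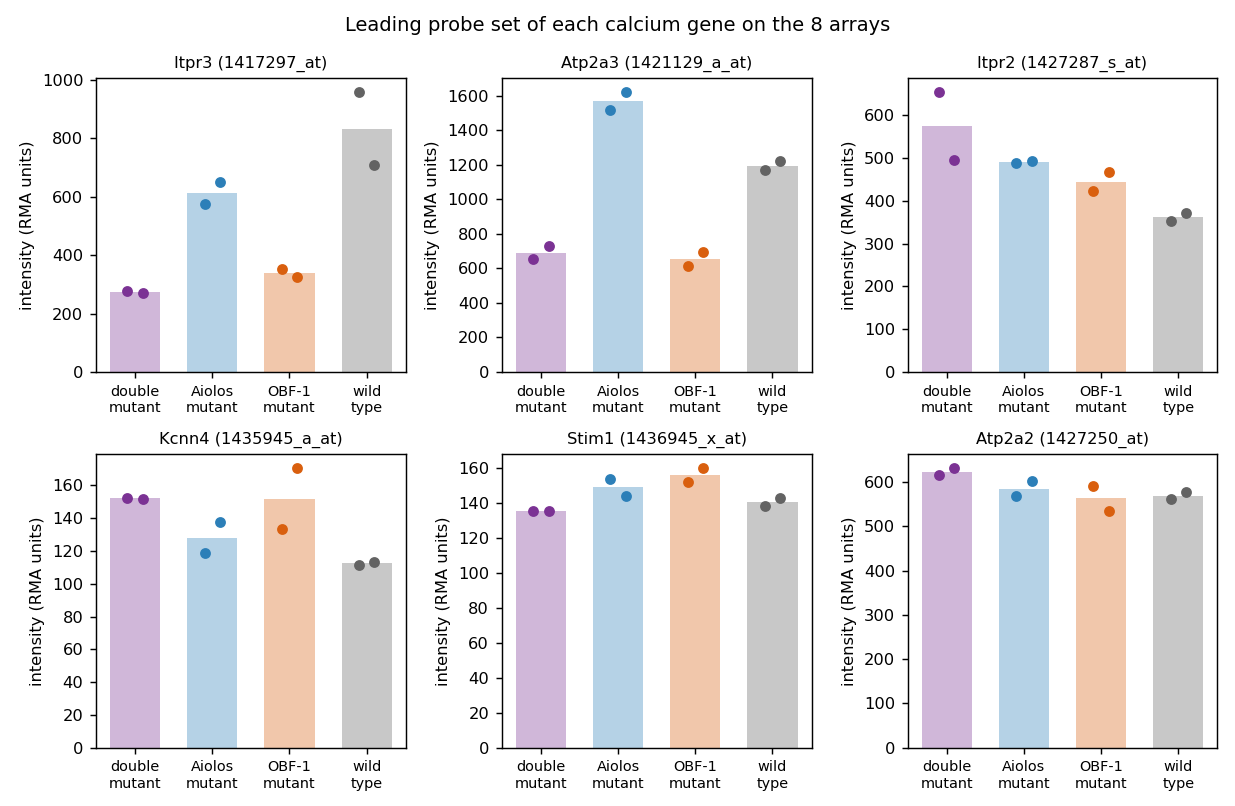
RMA intensity (vertical axis, linear units from 0) of the leading probe set of 6 calcium genes in the 4 genotypes, from the double mutant on the left to wild type on the right. Points are the 2 arrays of a genotype and bars their mean. Itpr3 and Atp2a3 are low on the 4 arrays without OBF-1, while Stim1 and Atp2a2 have similar heights in all genotypes.

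Among probe sets with a mean of at least 100 units (8462), those whose pattern over the 8 arrays was most like that of Itpr3 were of Ralgps2 (Pearson r = 0.9945), Traf5 (0.9917), Trappc4 (0.9884), Hip1r (0.9877) and Ets2 (0.9860). Those most opposed were of Lyz2 (-0.9945), which is also on the list of granulocyte and monocyte markers, Fcgr2b (-0.9901) and Lgals1 (-0.9851). Pou2af1 stood at rank 53 (0.9441) and Atp2a3 at rank 328 (0.8246). The 8 arrays share their genotypes and stations, and these correlations are descriptions.

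The SERCA3 gene Atp2a3 (chromosome 11, 72961169 to 72993043) encodes the store pump prominent in blood cells. It fell with loss of OBF-1 on both of its probe sets, whether Aiolos was present or not. The probe set 1421129_a_at had 652.2 and 730.9 units in double-mutant cells, against 1520 and 1619 units in Aiolos single-mutant cells. It had 616.2 and 692.4 units in OBF-1 single-mutant cells, against 1171 and 1219 units in wild type cells. Within each station the arrays without OBF-1 lay far below those with it, and the groups did not overlap.

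This Atp2a3 probe set had a log2 fold change of -0.87 for the OBF-1 single mutant over wild type (95% interval -1.09 to -0.65, adjusted p = 0.000584 from limma) and -1.18 for the double mutant over the Aiolos single mutant (-1.40 to -0.96, adjusted p = 3.1e-05). Averaged over both Aiolos states it was -1.03 (standard error 0.071, adjusted p = 3.44e-06), a 2.04-fold lower level. The double mutant was lower than wild type by a log2 fold change of -0.79 (adjusted p = 0.000419). Without moderation of the variances, the averaged fall passed (adjusted p = 0.0306 from limma) but those in the OBF-1 single mutant over wild type (0.125), the double mutant over the Aiolos single mutant (0.0622) and the double mutant over wild type (0.0538) did not.

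The probe set 1450124_a_at of Atp2a3 had 177.5 and 140.8 units in double-mutant cells and 258.1 and 233.2 in Aiolos single-mutant cells. It had 138.4 and 125.1 units in OBF-1 single-mutant cells, against 206.0 and 189.8 in wild type cells. Again no array without OBF-1 reached those with it. Its log2 fold changes were smaller, -0.59 for the OBF-1 single mutant over wild type (adjusted p = 0.0259 from limma), -0.63 for the double mutant over the Aiolos single mutant (0.0131) and -0.61 averaged (0.00101). The call in the OBF-1 single mutant was lost without any 1 array of the comparison (adjusted p = 0.0689 without OBF-1 replicate 1, 0.192 without OBF-1 replicate 2, 0.202 without WT replicate 1 and 0.0947 without WT replicate 2), and that of the double mutant over the Aiolos single mutant without Aiolos replicate 1 (0.111) or double-mutant replicate 2 (0.122). The averaged call was lost without moderation (0.131). Against wild type, the double mutant had a log2 fold change of -0.32 on this probe set (adjusted p = 0.136).

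Atp2a3 had its highest values in Aiolos single-mutant cells on both probe sets. Over wild type the log2 fold changes there were 0.39 (95% interval 0.17 to 0.61, adjusted p = 0.074 from limma) and 0.31 (0.049 to 0.57, adjusted p = 0.195), and neither passed. Of these, 1421129_a_at passed with quantile normalization (0.0452) or a trend and robust fit (0.0381), and the mean of both probe sets passed with 0.35 (adjusted p = 0.0392). In cells without OBF-1, loss of Aiolos gave log2 fold changes of 0.080 (-0.14 to 0.30, adjusted p = 0.775) and 0.27 (0.0026 to 0.53, adjusted p = 0.327). The interaction of both deletions on 1421129_a_at was -0.31 (-0.62 to -0.0014, adjusted p = 0.419), so a difference of the OBF-1 effect between the Aiolos states did not pass.

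The SERCA2 gene Atp2a2 (chromosome 5, 122453513 to 122502225), the store pump of most cell types, did not follow Atp2a3. Its leading probe set 1427250_at had 615.5 and 631.5 units in double-mutant, 567.4 and 602.5 in Aiolos single-mutant, 591.5 and 535.3 in OBF-1 single-mutant and 560.8 and 577.2 in wild type cells. The double-mutant arrays were the highest, and those of the other genotypes lay among each other. Averaged loss of OBF-1 gave a log2 fold change of 0.038 (95% interval -0.10 to 0.18, adjusted p = 0.855 from limma), and the double mutant over wild type gave 0.13 (-0.071 to 0.33, adjusted p = 0.468). The other probe sets lay at 245.9 to 290.0 units (1416551_at), 103.2 to 130.4 (1452363_a_at) and 64.2 to 81.6 (1427251_at) over the 8 arrays. None of the 4 passed in any comparison.

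The other measured IP3 receptor gene, Itpr2 (chromosome 6, 146108299 to 146502258), moved in the opposite direction to Itpr3 on 2 of its 5 probe sets, and only the double mutant differed from wild type by the test. The probe set 1427287_s_at had 652.7 and 494.0 units in double-mutant, 486.9 and 491.8 in Aiolos single-mutant, 421.5 and 466.2 in OBF-1 single-mutant and 352.7 and 371.8 units in wild type cells. Both wild type arrays lay below the 6 mutant arrays. The log2 fold change of the double mutant over wild type was 0.65 (95% interval 0.38 to 0.92, adjusted p = 0.00659 from limma), across the stations. This call was lost on omission of WT replicate 1 (0.0578) or double-mutant replicate 1 (0.0553), and with unmoderated variances (0.158). For the single mutants it was 0.43 with loss of Aiolos (adjusted p = 0.0999, and 0.0455 on omission of either double-mutant array, which enters by the shared spread) and 0.29 with loss of OBF-1 (adjusted p = 0.334). Averaged loss of OBF-1 gave 0.25 (0.153) and the double mutant over the OBF-1 single mutant 0.36 (0.185), which passed without double-mutant replicate 2 alone (0.0239 and 0.0376).

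The probe set 1424833_at of Itpr2 had 247.2 and 208.1 units in double-mutant and 201.0 and 184.2 in Aiolos single-mutant cells. It had 182.3 and 129.8 units in OBF-1 single-mutant cells, against 139.1 and 150.6 in wild type cells. The 4 arrays without Aiolos were above the other 4. The double mutant rose over wild type by a log2 fold change of 0.65 (0.33 to 0.97, adjusted p = 0.0171 from limma), a call lost without WT replicate 1 (0.115), WT replicate 2 (0.0658) or double-mutant replicate 1 (0.147) and without moderation (0.235). Over the OBF-1 single mutant the value was 0.56 (adjusted p = 0.0729), and it passed without OBF-1 replicate 1 (0.0148) or with a replicate block (0.0411).

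The probe sets of Itpr2 disagree. In the double mutant over wild type 1424834_s_at gave 0.26 (adjusted p = 0.206 from limma). There 1427693_at, at 55.2 to 70.6 units, gave -0.015 (0.964) and 1421678_at, at 45.7 to 65.4 units, gave -0.018 (0.968). The mean of all Itpr2 probe sets was 0.31 (adjusted p = 0.105 from limma) in this comparison, and it passed in none. Probe sets ending in s_at or x_at can bind transcripts of several genes. The granulocyte and monocyte marker sum was higher in every mutant than in wild type, as was 1427287_s_at of Itpr2, and its part in this result was not tested.

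**Figure D2:**
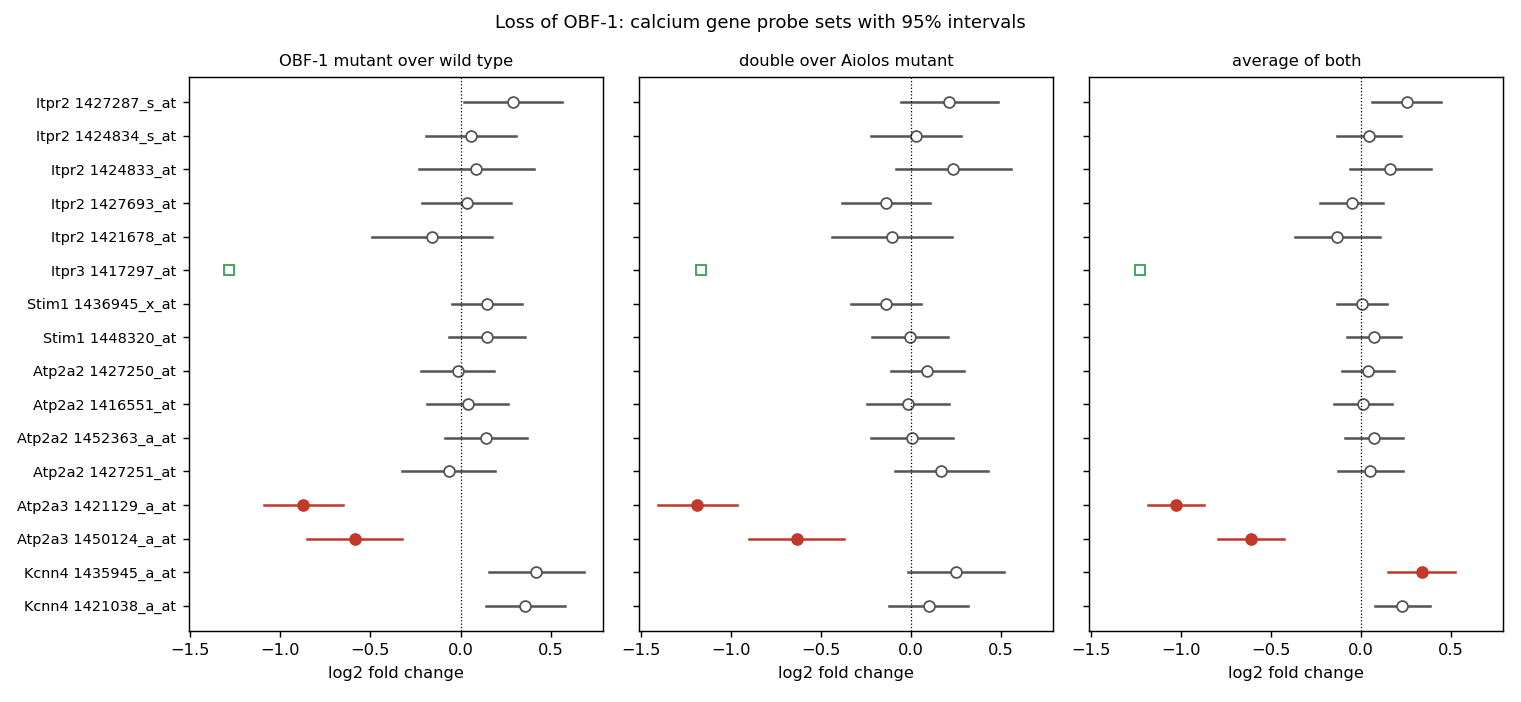
Log2 fold change (horizontal axis) of the 16 probe sets for loss of OBF-1: OBF-1 single mutant over wild type, double mutant over Aiolos single mutant, and the average of both. Lines are 95% intervals, filled red points passed at an adjusted p under 0.05, open grey points did not, and the open green square is Itpr3, shown without interval or test. Both Atp2a3 probe sets lie below 0 in all 3 panels, at -0.87 and -0.59 in the first.

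The store sensor Stim1 (chromosome 7, 102261514 to 102437319) passed in no comparison. Its leading probe set 1436945_x_at had 135.5 and 135.1 units in double-mutant, 153.7 and 144.0 in Aiolos single-mutant, 151.7 and 159.9 in OBF-1 single-mutant and 138.0 and 143.0 in wild type cells. The other, 1448320_at, had 133.7 and 124.3 units in the double mutant, 131.0 and 127.2 without Aiolos alone, 149.1 and 164.7 without OBF-1 alone and 135.8 and 147.7 in wild type. On both, the OBF-1 single-mutant arrays were above those of the double mutant. The double mutant over the OBF-1 single mutant gave log2 fold changes of -0.20 (95% interval -0.40 to -0.0076, adjusted p = 0.311 from limma) and -0.28 (-0.49 to -0.071, adjusted p = 0.181). Averaged loss of OBF-1 gave 0.0058 (-0.13 to 0.14) and 0.072 (-0.078 to 0.22), so falls of the size seen for Atp2a3 lie outside these intervals.

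The calcium-gated potassium channel gene Kcnn4 (chromosome 7, 24369826 to 24385212) was higher in cells without OBF-1, near the threshold. The paper lists Kcnn4 among genes that earlier studies of B cells lacking OBF-1 had linked to this factor. It states that some of those genes were seen again on these arrays, and the ones it shows do not include Kcnn4. The probe set 1435945_a_at had 152.4 and 151.6 units in double-mutant, against 118.5 and 137.5 in Aiolos single-mutant cells. It had 133.1 and 170.5 units in OBF-1 single-mutant, against 111.6 and 113.5 in wild type cells. Within each station the arrays without OBF-1 lay above those with it, but over all 8 arrays the sets overlapped, since 1 Aiolos single-mutant array was above 1 OBF-1 single-mutant array.

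Averaged over both Aiolos states, loss of OBF-1 raised this Kcnn4 probe set by 0.34 in log2 (standard error 0.086) at an adjusted p of 0.0447 from limma. The parts were 0.42 for the OBF-1 single mutant over wild type (adjusted p = 0.125, or 0.0435 without OBF-1 replicate 1) and 0.25 for the double mutant over the Aiolos single mutant (0.33), and neither passed with all arrays. The averaged call was lost on omission of any 1 array but OBF-1 replicate 1 (adjusted p = 0.052 to 0.161 from limma), with quantile normalization (0.0713) and without moderation (0.303). The double mutant over wild type gave 0.43 (adjusted p = 0.0469), which was lost without any 1 double-mutant, wild type or Aiolos single-mutant array (0.0508 to 0.177).

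The dim Kcnn4 probe set 1421038_a_at, at 18.9 to 27.1 units, pointed the same way without passing, with 0.23 averaged (limma adjusted p = 0.1) and 0.33 for the double mutant over wild type (0.0676). The mean of both probe sets passed, with 0.28 averaged (adjusted p = 0.022) 0.38 in the double mutant over wild type (0.0209) and 0.39 in the OBF-1 single mutant over wild type (0.0471), where neither probe set passed alone. Kcnn4 is also the Gardos channel of red cells. The 3 of 6 erythroid markers that were measured summed to 260.3 to 334.0 units in the double mutant, 254.7 to 346.7 without Aiolos alone, 289.4 to 370.4 without OBF-1 alone and 265.7 to 266.6 in wild type, with Hba-a1 at 18.2 to 27.5 units. Over the 8 arrays the probe set most like 1435945_a_at in pattern was of Klf1, an erythroid transcription factor (r = 0.9599), and the granulocyte gene Ltf was at rank 5 (0.9474). The part of either cell type in the Kcnn4 values was not tested.

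**Figure D3:**
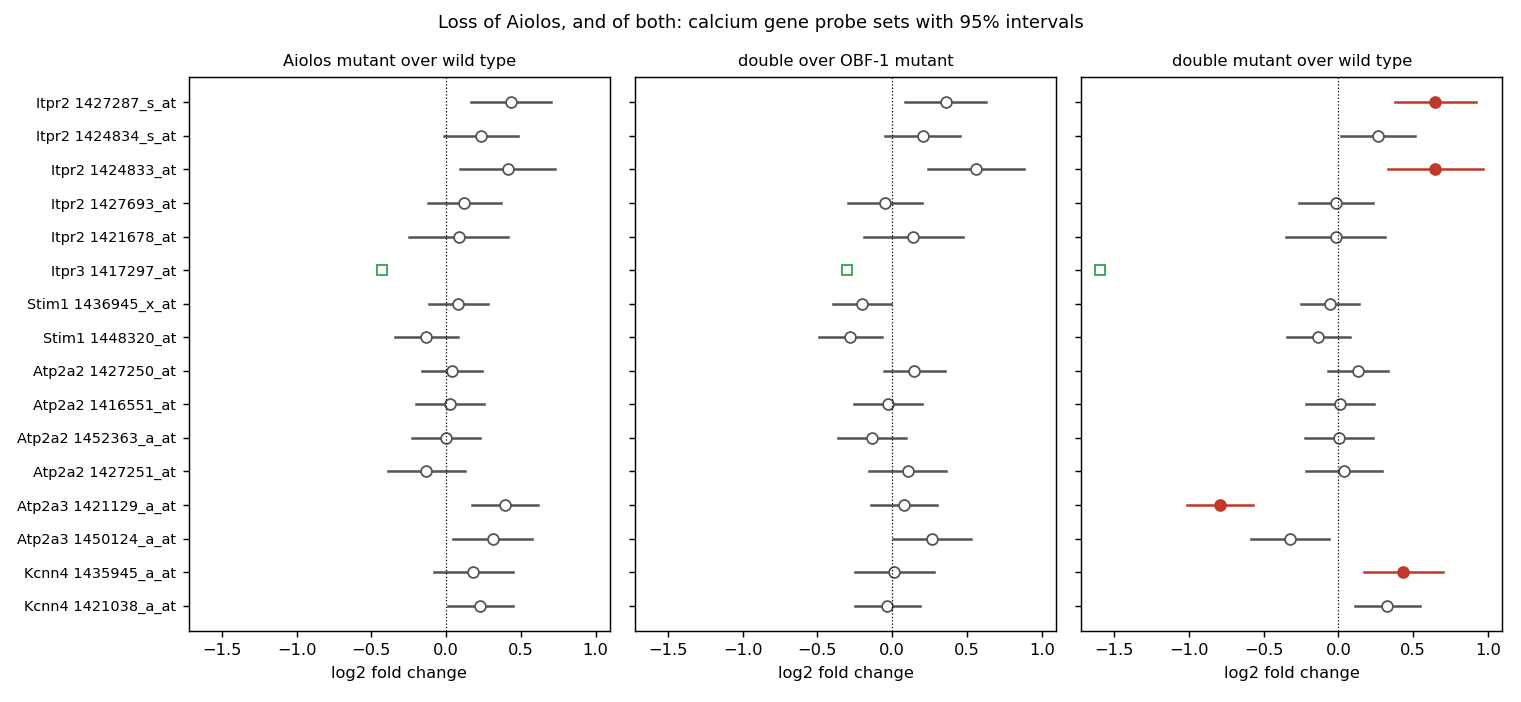
Log2 fold change (horizontal axis) of the 16 probe sets for the Aiolos single mutant over wild type, the double mutant over the OBF-1 single mutant and the double mutant over wild type, each across the 2 fluidics stations. Marks are as for loss of OBF-1: lines are 95% intervals, filled red points passed, open grey points did not, and the open green square is Itpr3 without interval or test. Filled points stand in the third panel alone, for 2 probe sets of Itpr2 and 1 each of Atp2a3 and Kcnn4.

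Counted over the 15 probe sets without Itpr3, the OBF-1 single mutant over wild type had 0 higher and 2 lower (13.3%), both of Atp2a3, where over all probe sets 0.946% were called higher and 1.14% lower. The double mutant over the Aiolos single mutant had 0 higher and 2 lower, again Atp2a3, against 1.75% and 1.19% of all probe sets. The average of both had 1 higher, of Kcnn4, and the same 2 lower, against 2.72% and 2.29%. Of the 5 genes of these 15 probe sets, only Atp2a3 and Kcnn4 were thus called for loss of OBF-1.

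The Aiolos single mutant over wild type had 0 calls among the 15 by limma, 5 of them with an unadjusted p under 0.05, where 0.831% of all probe sets were higher and 1.01% lower. The double mutant over the OBF-1 single mutant also had 0, with 5 at an unadjusted p under 0.05, against 1.61% and 1.03%. The double mutant over wild type had 3 higher (20%) and 1 lower (6.67%), against 4.29% and 4.28%. The interaction had 0 calls, with 2 at an unadjusted p under 0.05, against 0.186% of all probe sets in either direction. Without moderation, the double mutant over wild type had 0 calls and so had both single comparisons of OBF-1 loss. The median log2 fold change of the 15 was 0.045 for averaged loss of OBF-1 and 0.0086 for the double mutant over wild type, beside -0.0012 and 0.0083 over all probe sets. Comparisons that share wild type or double-mutant arrays are not independent of each other.

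Around these genes, 9 lists of the wider calcium pathway held 103 genes, of which 81 were measured on 147 probe sets. For averaged loss of OBF-1, 4 of the 147 were higher (2.72%) and 4 lower (2.72%), near the shares over all probe sets. For the double mutant over wild type, 6 were higher (4.08%) and 11 lower (7.48%), beside 4.29% and 4.28% of all probe sets.

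In the list of IP3 formation and breakdown, 8 of 9 genes were measured, and for averaged loss of OBF-1 2 of 8 probe sets rose and 0 fell, beside 2.72% and 2.29% of all probe sets. Itpkb, the kinase that phosphorylates IP3, had 788.0 and 799.9 units in double-mutant and 572.1 and 598.4 in Aiolos single-mutant cells. It had 526.4 and 568.8 units in OBF-1 single-mutant, against 515.8 and 441.7 in wild type cells. The double-mutant arrays stood above all others, and the log2 fold change was 0.73 over wild type (adjusted p = 0.000729 from limma), 0.44 over the Aiolos single mutant (0.0377) and 0.54 over the OBF-1 single mutant (0.0158). The first passed on omission of any 1 array but not without moderation (0.0595), and the others were lost without any 1 array compared (0.109 to 0.2, and 0.0583 to 0.0981). Its interaction did not pass. The averaged OBF-1 effect was 0.32 (0.023). Inpp5a, a phosphatase that removes a phosphate from IP3, rose by 0.32 averaged (0.0316). The averaged call of Itpkb was lost on omission of any 1 array but OBF-1 replicate 1 or WT replicate 1 (0.0572 to 0.0979), and that of Inpp5a on omission of any but Aiolos replicate 2 (0.056 to 0.124).

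In the list of store-operated entry, 3 of 7 genes were measured on 4 probe sets, and 1 rose with averaged loss of OBF-1, beside 2.72% of all probe sets. This was Saraf, an endoplasmic reticulum protein that restrains Stim1. Saraf had 561.6 and 636.3 units in double-mutant, against 378.7 and 341.5 in Aiolos single-mutant cells, and 531.4 and 494.9 units in OBF-1 single-mutant, against 349.6 and 356.8 in wild type cells. The arrays without OBF-1 were above those with it, by 0.64 in log2 averaged (adjusted p = 0.000186 from limma), 0.54 with Aiolos present (0.0159) and 0.73 with Aiolos absent (0.00149). The averaged value passed on omission of any 1 array but not without moderation (0.0623), while that with Aiolos present was lost on omission of any of its 4 arrays (0.068 to 0.126).

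In the list of other stores and release channels, 1 of 12 probe sets rose with averaged loss of OBF-1 and 0 fell, beside 2.72% and 2.29% of all probe sets. Tpcn1, a channel of endosomes and lysosomes, had 385.2 and 354.7 units in double-mutant, against 259.1 and 265.4 in Aiolos single-mutant cells, and 346.8 and 380.4 units in OBF-1 single-mutant, against 290.8 and 298.7 in wild type cells. The groups did not overlap, and the averaged log2 fold change was 0.40 (adjusted p = 0.00361 from limma, and 0.0751 without moderation).

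**Figure D4:**
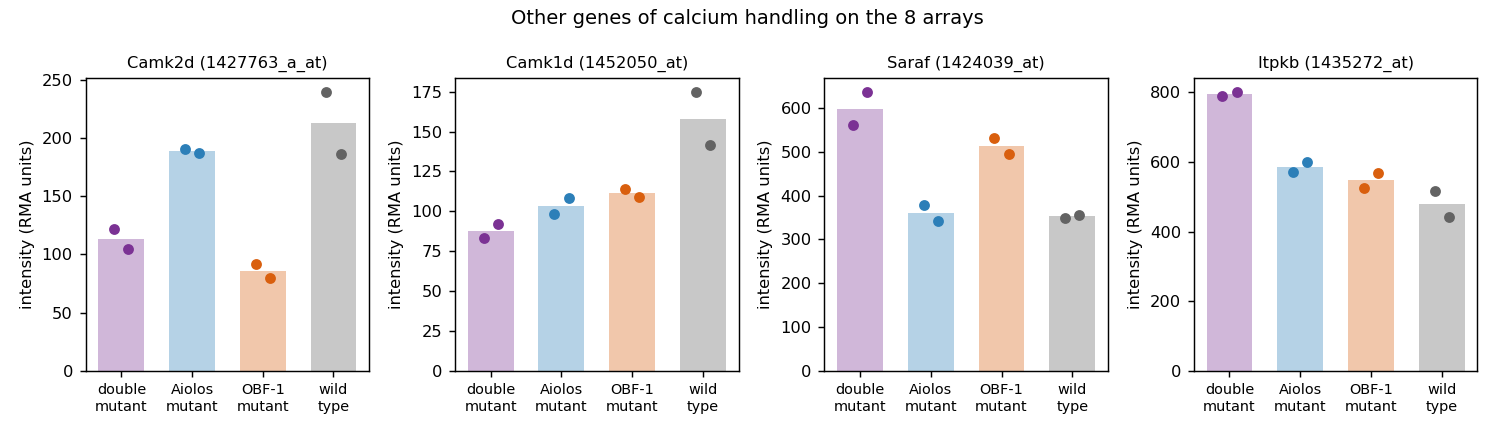
RMA intensity (vertical axis, linear units from 0) of Camk2d, Camk1d, Saraf and Itpkb in the 4 genotypes, from the double mutant on the left to wild type on the right. Points are the 2 arrays of a genotype and bars their mean. Camk2d is low and Saraf high on the 4 arrays without OBF-1, and Itpkb is highest in the double mutant, at 788.0 and 799.9 units.

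Downstream of calcium, the list of calmodulin, calcineurin, NFAT and CaM kinases had 19 of 23 genes on 45 probe sets, with 0 higher and 3 lower for averaged loss of OBF-1, beside 2.72% and 2.29% of all probe sets. The 3 were of 2 genes, Camk2d and Camk1d. Camk2d, a subunit of the calcium and calmodulin-dependent kinase II, had 121.8 and 104.7 units on 1427763_a_at in double-mutant, against 190.7 and 186.8 in Aiolos single-mutant cells. It had 91.7 and 79.5 units in OBF-1 single-mutant, against 239.3 and 186.5 in wild type cells. Its arrays without OBF-1 were all below those with it, and the averaged log2 fold change was -1.02 (standard error 0.091, adjusted p = 2.95e-05 from limma). A second probe set, 1422659_at, gave -1.10 (0.000339). Neither passed without moderation (0.0738 and 0.147). In the double mutant over the Aiolos single mutant, 1 of the 45 was lower (2.22%), beside 1.19% of all probe sets. This was 1427763_a_at of Camk2d, with -0.74 (adjusted p = 0.00801 from limma).

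Camk1d, a CaM kinase I family member, had 83 and 92 units on 1452050_at in double-mutant, 98.4 and 108.3 in Aiolos single-mutant, 114.2 and 108.8 in OBF-1 single-mutant and 174.6 and 141.7 in wild type cells. Each mutant lay below wild type, with log2 fold changes of -0.85 for both losses (limma adjusted p = 0.000667), -0.61 for Aiolos (0.0252) and -0.50 for OBF-1 (0.0493). The first passed on omission of any 1 array but not without moderation (0.0862). The second was lost without Aiolos replicate 1 (0.183), Aiolos replicate 2 (0.0617) or WT replicate 1 (0.202), and the third without any 1 array but WT replicate 2 (0.0599 to 0.339). The third was also lost with a replicate block (0.058), and with the compared genotypes alone neither the second (0.0561) nor the third (0.0907) passed. Averaged loss of OBF-1 gave -0.37 on this Camk1d probe set (adjusted p = 0.0209 from limma, and 0.236 without moderation). Omission of 1 array at a time gave -0.44 to -0.29, and the averaged call did not hold under every omission. Nfatc3, a calcium-regulated transcription factor, was lower on 2 probe sets in the double mutant over wild type, by -0.65 on 1452497_a_at (0.0262) and -0.40 on 1419976_s_at (0.0369), and both were lost without any 1 wild type or double-mutant array (0.073 to 0.183), except 1452497_a_at without WT replicate 2. The leading probe set of Ppp3cc, a phosphatase subunit gene of calcineurin, passed in no comparison. Another, 1420743_a_at, was dim at 24.2 to 51.9 units. It fell with loss of Aiolos, with log2 fold changes of -0.83 where OBF-1 was absent (0.00187) and -0.60 where it was present (0.0244), and this second call was lost without Aiolos replicate 1 (0.148), Aiolos replicate 2 (0.0974) or WT replicate 1 (0.197).

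In the list of endoplasmic reticulum calcium-binding proteins all 10 genes were measured on 17 probe sets, and the double mutant over wild type had 0 higher and 3 lower, beside 4.29% and 4.28% of all probe sets. Averaged loss of OBF-1 had 0 higher and 1 lower (5.88%), beside 2.72% and 2.29%. The OBF-1 single mutant over wild type also had 0 and 1, beside 0.946% and 1.14%. In both this was 1427464_s_at of Hspa5, the chaperone BiP, with -0.34 (adjusted p = 0.0344 from limma) and -0.51 (0.045). Neither passed without moderation (0.269 and 0.327), and the second was also lost with the compared genotypes alone (0.0608). Omission of 1 array at a time gave -0.40 to -0.28 and -0.63 to -0.39, and neither call held under every omission. The leading probe set of Hspa5 passed in no comparison. In the double mutant over wild type its 1427464_s_at had a log2 fold change of -0.57 (adjusted p = 0.00967 from limma). Pdia3, a disulfide isomerase, had one of -0.55 (0.00767) and Hsp90b1, the chaperone GRP94, one of -0.38 (0.0359). Without WT replicate 1 these gave adjusted p of 0.0945, 0.075 and 0.16, and without double-mutant replicate 1 0.0954, 0.0538 and 0.192. Hsp90b1 was also lost without WT replicate 2 (0.118), double-mutant replicate 2 (0.0648) or either Aiolos array (0.0518). These proteins are best known as folding factors of the endoplasmic reticulum. Plasma cell markers, all 4 measured, summed to 1736 to 1829 units in the double mutant, against 1235 to 1260 in wild type, with 1 of the 4 called higher and 0 lower, and their part in these values was not tested.

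Of the remaining lists, partners of IP3 receptors had 0 of 13 probe sets called for averaged loss of OBF-1 and 2 higher in the double mutant over wild type, beside 4.29% of all probe sets. These were Lrmp, an endoplasmic reticulum protein of lymphocytes that binds IP3 receptors (0.33, adjusted p = 0.0447 from limma), and Ahcyl2 (0.37, 0.0353). Lrmp was lost without any 1 double-mutant, Aiolos or wild type array (0.0666 to 0.18), and Ahcyl2 likewise (0.0547 to 0.214) except without double-mutant replicate 2. Other calcium pumps and exchangers, plasma membrane channels and mitochondrial uptake had 0 calls for averaged loss of OBF-1 on 16, 19 and 13 probe sets by limma. In other comparisons each had 1 call. Atp2c1, a Golgi calcium pump, was lower in the double mutant over wild type (-0.37, 0.0436), and P2rx4, an ATP-gated channel, was higher (0.39, 0.04). Vdac1, a channel of the outer mitochondrial membrane, was lower on 1437947_x_at in the Aiolos single mutant over wild type (-0.55, 0.0223). The called probe sets of Ahcyl2, Atp2c1, P2rx4 and Vdac1 were not the leading ones. The leading probe sets of these genes passed in no comparison. Those called for P2rx4 (38.2 to 53.3 units) and Vdac1 (32.8 to 49.2 units) were also dim. Atp2c1 was lost without any 1 array but double-mutant replicate 2 (0.0547 to 0.279), P2rx4 without any 1 double-mutant, Aiolos or wild type array (0.0583 to 0.22) and Vdac1 without any 1 array compared (0.08 to 0.143).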

How the data were processed

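MOE430A arrays of pre-BII cells from 4 genotypes, 2 arrays each, were read. Each deposited intensity is the authors' RMA value on a linear scale (background correction, quantile normalization and probe summary; version not given in the sources used here). The deposited hybridization records, other text fields, gave the fluidics station and module. Of 22690 probe sets, 64 controls were left out, and no filter on low intensity was set. Gene names came from the platform annotation, brought up to date through a gene table (GRCm38.p6): 20380 probe sets had 1 symbol, 691 several and 1555 none, and 20351 were matched. For the tests, limma 3.58.1 under R 4.3.3 took log2 intensities and estimated 1 mean per genotype (7.69 prior and 4 residual degrees of freedom) and Benjamini-Hochberg adjustment over 22626 probe sets. Simulated data, in which 200 probe sets had a known change, were used to check the fit. The members and gene lists were chosen with earlier results of these data known. All probe sets of the members are named; of each wider list, up to 4 genes that passed. The leading probe set of a gene is that with the highest mean. Alternatives were other normalizations, an intensity filter, a robust fit with a trend, unmoderated variances, gene means, a replicate block, the compared genotypes alone and leaving out each array.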

Additional observations from a re-analysis of the deposited data

How the results depend on the processing

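Counts are of called calcium gene probe sets (15 tested). Without moderation of variances 0 were called in the OBF-1 single mutant over wild type and in the double mutant over the Aiolos single mutant (2 each with it), 0 in the double mutant over wild type (4 with it) and 1 for averaged loss of OBF-1 (3 with it). With probe sets averaged per gene, 1 of 5 genes was called in the double mutant over the Aiolos single mutant, 2 in the double mutant over wild type and 1, Atp2a3, in the Aiolos single mutant over wild type (0 probe sets in the report). Quantile normalization and the trend and robust fit each called 1 there. Leaving out 1 array at a time gave 1 to 2 calls in the OBF-1 single mutant over wild type, 1 to 2 in the double mutant over the Aiolos single mutant, 2 to 3 averaged, 0 to 1 in the Aiolos single mutant over wild type, 0 to 1 in the double mutant over the OBF-1 single mutant and 1 to 4 in the double mutant over wild type. The interaction had 0 calls under every alternative run. A lone array left in a genotype was assumed to vary like the other genotypes.

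The replicate numbers do not pair the arrays: deviations of arrays with the same number correlated with r between -0.088 and 0.103. With the replicate block 1 probe set, 1424833_at of Itpr2, passed (adjusted p = 0.0411 from limma) in the double mutant over the OBF-1 single mutant, where 0 had passed, and the counts of the other comparisons were the same. Among the wider lists, the block also ended the calls of Camk1d (0.058) and Hspa5 (0.051) in the OBF-1 single mutant and of Atp2c1 (0.0522) in the double mutant, each over wild type. A fit to the compared genotypes alone could not be made for the average and the interaction. Of 1517 pairs of a calcium gene probe set in a comparison with an alternative, 78 had another sign than in the report, none of them for a call. With 2 arrays per genotype, the number of arrays limits the precision.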

Other observations

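The octamer found in the Itpr3 window is in the windows of 183 measured genes with 287 probe sets. Of these, 17 (5.92%) were lower and 6 (2.09%) higher for averaged loss of OBF-1, beside 2.29% and 2.72% of all probe sets. In the double mutant over the Aiolos single mutant 11 (3.83%) were lower and 4 (1.39%) higher, beside 1.19% and 1.75% of all probe sets. In the OBF-1 single mutant over wild type 7 (2.44%) were lower and 2 (0.697%) higher, beside 1.14% and 0.946%. The median averaged log2 fold change of the 287 was -0.019, beside -0.0012 over all probe sets. For the double mutant over the Aiolos single mutant it was -0.057, beside -0.025 over all probe sets, and for the OBF-1 single mutant over wild type it was 0.017, beside 0.020. The counts include Itpr3, and no test was made of them.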
